A study of Mus musculus with 2 samples.

Results

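The enzymes that break tryptophan down to kynurenine and on towards NAD were followed in mouse RNA-seq libraries labelled as adipose, with 1 library from WT mice and 1 from mice with a Trappc9 knockout (KO). The 9 genes, Ido1, Ido2, Tdo2, Afmid, Kmo, Kynu, Haao, Qprt and Acmsd, were found by symbol among the 54532 genes of the deposited table. The members were chosen by name as enzymes of 1 pathway, with Ido1 first and with the WT and KO levels of these libraries in view, so the differences in these genes are given as a description and without a test. Both groups were of the same age, 3 to 4 weeks, and carried no treatment in the labels. Material came from 3 mice per genotype per the design text, and the labels do not say whether they were pooled, nor their strain and sex or how the Trappc9 allele was made. The titles name stem cells derived from adipose tissue, whereas the extraction label names frozen fat pads from the abdomen.

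The kynurenine pathway is the main route of tryptophan breakdown. A heme dioxygenase, IDO1, IDO2 or TDO2, opens the indole ring, and the formamidase AFMID releases kynurenine from the product. KMO, KYNU and HAAO then carry kynurenine to an unstable intermediate that closes to quinolinate, which QPRT turns into a precursor of NAD, while ACMSD diverts that intermediate away from NAD. TDO2 is known mainly from the liver. IDO1 is known as an interferon gamma-induced enzyme of dendritic cells and macrophages, and also for a high resting level in the mouse epididymis, the duct in which sperm mature.

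Ido1 was far above the other enzymes in both libraries and was the only 1 of the 9 that reached 2-fold between them on a scale of FPKM + 1. Its level was 43.1 FPKM (a fragment count divided by gene length and by a library size) in the WT-labelled library and 114 FPKM in the KO-labelled library. Its neighbour and sequence relative Ido2 was also higher in the KO-labelled library, by a smaller ratio. For the other 7 enzymes, from 1 to 64 fragments per library stood behind each value, and differences in them were within counting error in the deposited scaling.

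With 1 library per genotype, no difference here has a replicate check. The only error that could be given is a 95% counting interval, from the fragments recovered from FPKM and gene length (13705193 in the WT-labelled library and 14783728 in the KO-labelled library). It covers neither the spread between animals nor that between preparations. "Higher" or "lower beyond counting error" means that the interval of the KO over WT ratio lies above or below 1. Trappc9 itself stood at 9.94 FPKM in the WT-labelled library and 12.6 FPKM in the KO-labelled library. Its ratio of 1.27 (1.17 to 1.37) was higher beyond counting error in the deposited scaling. This gene-level value is not reduced and does not show which exons were read. The libraries are therefore named by their labels. In such bulk libraries, fewer cells of a type and less RNA per cell cannot be told apart.

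Ido1 and Ido2 lie side by side on the minus strand of chromosome 8, so it matters whether fragments of the abundant gene could have been counted at the rare one. Ido1 (ENSMUSG00000031551) spans 24584136 to 24597009 and Ido2 (ENSMUSG00000031549) 24531892 to 24576333 in the deposited coordinates (GRCm38, also called mm10), with 7.80 kb between them. In the GENCODE M21 annotation, 8 of the 10 exons of the reference transcripts Ido1-201 and Ido2-201 have the same length in both genes, exons 2 to 9, all of them coding. Over these 769 bases, aligned without gaps, 55.0% were identical. Exon 8, the most alike, and exon 3, which holds the longest run the genes share, are shown as examples of how far the copies differ. Letters are transcript sequence, 5′ to 3′, with the bases that differ between the genes in capitals.
Ido1 exon 3, chr8:24593093-24593212: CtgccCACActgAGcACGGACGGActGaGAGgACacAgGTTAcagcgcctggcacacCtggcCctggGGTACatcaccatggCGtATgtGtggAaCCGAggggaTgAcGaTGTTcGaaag
Ido2 exon 3, chr8:24553721-24553840: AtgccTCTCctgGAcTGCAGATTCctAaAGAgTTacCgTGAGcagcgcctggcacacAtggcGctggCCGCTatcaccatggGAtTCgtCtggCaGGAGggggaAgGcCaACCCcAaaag
Ido1 exon 8, chr8:24585740-24585791: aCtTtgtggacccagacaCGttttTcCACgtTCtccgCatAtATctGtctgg
Ido2 exon 8, chr8:24540594-24540645: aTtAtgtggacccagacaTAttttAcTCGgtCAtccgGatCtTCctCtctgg
Exon 3 differed at 52 of 120 bases and exon 8 at 15 of 52. The longest identical run anywhere in the annotated transcripts of the pair (2 of Ido1 and 4 of Ido2) was 15 bases. No window of 31 bases occurred in both, of 1795 distinct windows in Ido1 and 3622 in Ido2. The values of the pair are therefore given as separate measurements.

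Ido1, the interferon-inducible dioxygenase, rested on 1113 fragments in the WT-labelled library and 2973 in the KO-labelled library. The counting intervals of its level ran from 40.6 to 45.7 FPKM in the WT-labelled library and from 110 to 118 FPKM in the KO-labelled library, and did not overlap. The KO over WT ratio was 2.65, with a counting interval of 2.47 to 2.84, and the difference was 1.38 on the scale of log2((KO + 1)/(WT + 1)). By level, Ido1 ranked 989 among protein-coding genes in the WT-labelled library and 365 in the KO-labelled library. By log2 difference it ranked 70 of 13084 measured protein-coding genes, those with a mean of at least 1 FPKM. Of these, the share at least 2-fold apart was 1.24%, made up of 0.948% higher and 0.290% lower in the KO-labelled library. The middle 90% of them lay between −0.41 and 0.44, around a median of 0.022, so Ido1 lay well outside the bulk of genes. Relative to that median, its log2 difference was 1.35 to 1.36 in 4 scalings: the deposited one, TPM (the same sum in both libraries), total fragments, and the sum without the 50 most abundant genes.

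Ido2, a weaker dioxygenase that works on the same substrate, was at 3.38 FPKM from 174 fragments in the WT-labelled library and at 4.71 FPKM from 245 fragments in the KO-labelled library. Its ratio was 1.39, with a counting interval of 1.14 to 1.70. After rescaling to TPM the ratio was 1.21 and the interval, 0.994 to 1.48, included 1. Tdo2, the dioxygenase known from hepatocytes, was at 0.291 and 0.198 FPKM in the WT- and KO-labelled libraries, from 16 and 11 fragments. Its ratio of 0.681 had an interval of 0.286 to 1.56, so no difference was detectable at this depth. Ido1 thus stood at 12.7 times the level of Ido2 in the WT-labelled library and at 24.2 times in the KO-labelled library. It made up 92.1% and 95.9% of the summed FPKM of the 3 dioxygenases.

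**Figure D1:**
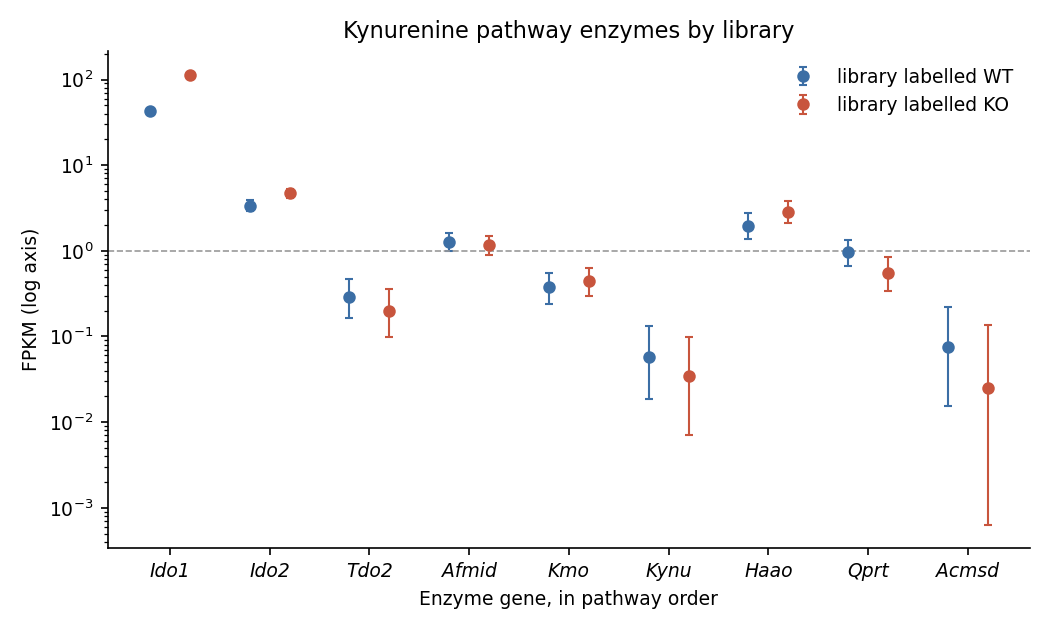
FPKM (log axis) of the 9 enzymes in the WT-labelled library (blue) and the KO-labelled library (red), with 95% Poisson counting intervals and a dashed line at 1 FPKM. Ido1 sits at 43.1 and 114 FPKM, and the other 8 all lie at or below 4.71 FPKM.

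Afmid, the formamidase of the next step, was at 1.28 and 1.17 FPKM in the WT- and KO-labelled libraries, from 64 and 59 fragments. Its ratio was 0.913 (0.630 to 1.32), and the intervals of its 2 levels overlapped. Its value is uncertain, because 46.6% of its 3539 exonic bases are shared with Tk1, which starts head to head with it on the other strand, or with the readthrough gene Gm20708, listed at 0 in both libraries. Neither the use of strand in counting nor the treatment of fragments on shared exons is stated in the labels.

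The steps from kynurenine onward were sparsely represented. Kmo, which hydroxylates kynurenine, was at 0.374 FPKM from 25 fragments in the WT-labelled library and 0.444 FPKM from 30 fragments in the KO-labelled library, a ratio of 1.19 (0.676 to 2.11). Kynu, which cleaves kynurenine and hydroxykynurenine, was at 0.0574 and 0.0341 FPKM, from 5 and 3 fragments. Its ratio of 0.594 had an interval of 0.0923 to 3.05, too wide to show a direction. The summed level of Kmo and Kynu was 0.431 and 0.478 FPKM, beside 43.1 and 114 FPKM for Ido1.

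Haao, the dioxygenase that makes the quinolinate precursor, was the third most abundant enzyme, at 1.96 and 2.86 FPKM from 34 and 50 fragments. Its ratio was 1.46 with an interval of 0.923 to 2.32, which includes 1. The table gives Haao a length of 1222 bases, whereas its exons in GENCODE M21 cover 4681 bases, and it is the only member whose coordinates differ between the sources. Its level per length therefore depends on the gene model. Its ratio does not depend on the length, but a model with other exons could change the fragments counted in both libraries.

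Qprt, which turns quinolinate into the NAD precursor nicotinate mononucleotide, went the other way in its point value, with 0.961 FPKM from 36 fragments in the WT-labelled library and 0.555 FPKM from 21 fragments in the KO-labelled library. The ratio was 0.578 and its interval, 0.320 to 1.02, just included 1. The call depended on the scaling: the ratio was 0.502 after rescaling to TPM, 0.541 after scaling to total fragments and 0.532 after scaling without the 50 most abundant genes, and in these 3 the interval lay below 1. Acmsd, the branch enzyme that keeps the intermediate from quinolinate, had 3 and 1 fragments, or 0.0748 and 0.0247 FPKM. Its ratio of 0.330 had an interval of 0.00629 to 4.11, and 3.32% of its exonic bases overlap the antisense gene 2900009J06Rik.

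Counted over all 9 enzymes, 2 (Ido1 and Ido2) were higher beyond counting error and 0 lower. Among the 18274 protein-coding genes with at least 1 fragment, 19.6% were higher and 15.0% lower by the same rule, so a count of 2 in 9 is near the background. Only 4 enzymes, Ido1, Ido2, Haao and Afmid, had a mean of at least 1 FPKM. Afmid, with a mean of 1.22 FPKM, stood just inside that limit and Qprt, with 0.758 FPKM, just outside. Without Ido1, the summed level of the other 8 was 8.38 and 9.99 FPKM in the WT- and KO-labelled libraries, against 51.4 and 124 FPKM with it.

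The order of the enzymes by level was nearly the same in both libraries. It ran Ido1, Ido2, Haao, Afmid, Qprt, Kmo, Tdo2 in each, followed by Acmsd and Kynu in the WT-labelled library and by Kynu and Acmsd in the KO-labelled library. In both libraries the counting intervals of Ido1, Ido2 and Haao were separate from each other. In the WT-labelled library the neighbours Haao and Afmid, and Afmid and Qprt, had overlapping intervals, as did each neighbouring pair from Kmo down. In the KO-labelled library the overlapping neighbours were Qprt and Kmo and each pair below them.

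**Figure D2:**
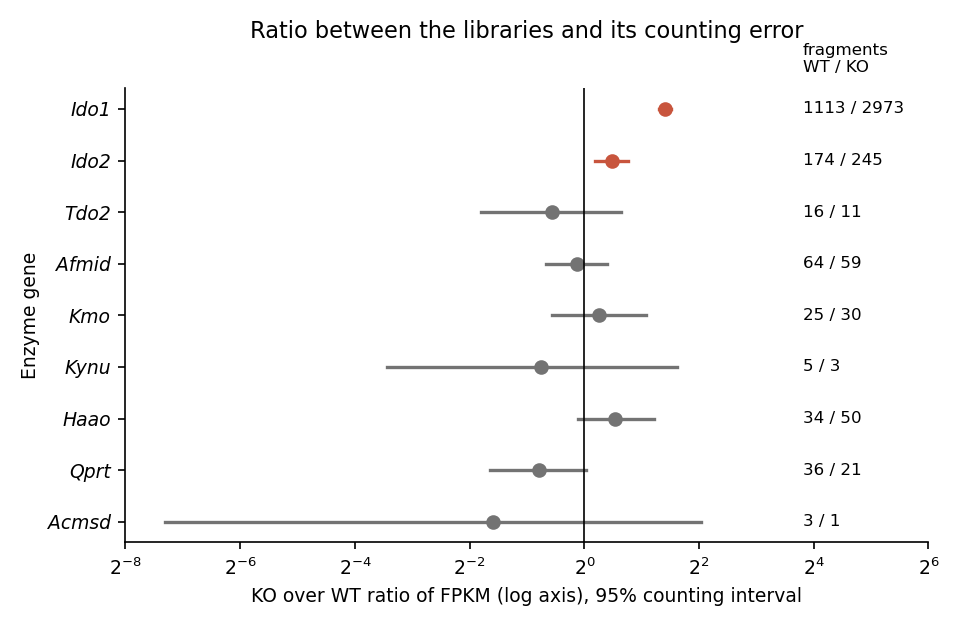
KO over WT ratio of FPKM (log axis) for each enzyme with its 95% counting interval, and the fragments behind it at the right. Only Ido1 (2.65) and Ido2 (1.39) lie wholly above 1 (red), and the intervals widen where few fragments were counted, as for Acmsd with 3 and 1.

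Enzymes that take kynurenine or its products elsewhere ranged widely in level. They summed to 173 and 192 FPKM in the WT- and KO-labelled libraries, mostly Got2. Aadat, with 3 and 2 fragments, and Aldh8a1, with 5 and 9, were below the minimum. Both were named after their values were seen. Of 8 genes for kynurenic acid formation and for the glutarate route, 6 were measured, with 3 higher beyond counting error and 0 lower, against 24.6% higher and 17.6% lower among all measured protein-coding genes. Those shares move with the scaling, to 7.88% higher and 48.4% lower after rescaling to TPM, 14.5% and 30.3% after scaling to total fragments, and 12.7% and 34.0% without the 50 most abundant genes. Counts of the lists below are to be read against them. Got2, a mitochondrial aspartate aminotransferase that can also act on kynurenine, was at 120 and 136 FPKM in the WT- and KO-labelled libraries. Kyat1, a kynurenine aminotransferase, was at 19.8 and 22.7 FPKM, and Dhtkd1, of the glutarate route, at 1.71 and 2.32 FPKM. The list's median log2 difference was 0.16, beside 0.022 for all measured genes. After rescaling to TPM the list's median was −0.014, and 0 members were higher and 2 lower, a scaling that moved the median of all genes by −0.19. Set against that of all measured genes, the list's median was higher by 0.14 to 0.15 in the 4 scalings.

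Genes of NAD synthesis and salvage, downstream of quinolinate, were close to the bulk of genes. Of 9 measured, 3 were higher and 0 lower, with a median of 0.11, whereas 0 were higher and 3 lower after rescaling to TPM, and 1 was higher and 1 lower in each of the other 2 scalings. The 3 were Nmnat3, an adenylyltransferase that completes NAD (3.36 and 4.40 FPKM), and the NAD kinases Nadk (49.1 and 53.1 FPKM) and Nadk2 (13.9 and 15.9 FPKM). Nmrk1, a nicotinamide riboside kinase, was at 3.52 and 4.26 FPKM, within counting error. Nadk was lower beyond counting error after rescaling to TPM, so its direction depends on the scaling, and the list's median was then −0.090. Of 8 measured genes that use NAD or clear nicotinamide, 2 were higher and 1 lower, with a median of −0.047, against 0 higher and 3 lower after rescaling to TPM. The lower gene was Parp1, which consumes NAD in DNA repair, at 14.2 and 11.8 FPKM, and it was lower in all 4 scalings. The NAD-dependent deacylase genes Sirt1 (6.05 and 7.34 FPKM) and Sirt2 (12.9 and 15.0 FPKM) were the higher ones, and neither was higher after rescaling to TPM.

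Of 8 measured genes that move or use tryptophan itself, 6 were higher beyond counting error and 0 lower, against 24.6% and 17.6% of all measured genes. The list's median was 0.26, beside 0.022 for all measured genes. Slc16a10, a transporter of aromatic amino acids, was at 24.4 and 35.8 FPKM, a ratio of 1.47 (1.39 to 1.54). Wars, the cytosolic tryptophanyl-tRNA synthetase, was at 173 and 226 FPKM, a ratio of 1.31 (1.27 to 1.35), and Slc7a8, a neutral amino acid transporter, was at 18.0 and 23.4 FPKM. These 3 were higher in all 4 scalings. Slc7a5, the main large neutral amino acid transporter and the most abundant of the list, was at 268 and 301 FPKM, but was lower beyond counting error after rescaling to TPM. In that scaling 3 of the 8 were higher and 1 lower. The shares over all measured genes were then 7.88% and 48.4%.

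Genes that respond to amino acid shortage, a state that tryptophan breakdown can bring about, included 4 higher and 0 lower of 7 measured, with a median of 0.24. Among all measured genes 24.6% were higher and 17.6% lower. Atf4, the transcription factor of this response, was at 86.1 and 106 FPKM and was higher in all 4 scalings. Sesn2, a leucine sensor, was at 12.1 and 15.2 FPKM, and Asns, asparagine synthetase, at 4.05 and 5.06 FPKM. After rescaling to TPM 1 of the 7 was higher and 1 lower, and in the other 2 scalings 2 were higher and 0 lower. Among all measured genes 7.88% were higher and 48.4% lower in TPM. The shares were 14.5% and 30.3% after scaling to total fragments, and 12.7% and 34.0% without the 50 most abundant genes.

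Genes through which cells sense kynurenines, by the aryl hydrocarbon receptor and Gpr35, had a median close to that of all measured genes. Of 7 measured, 2 were higher and 0 lower, with a median of 0.091. Those 2 were Nqo1, a quinone reductase (12.2 and 16.5 FPKM), and Tiparp, a target of the receptor that restrains it (25.2 and 28.6 FPKM). The receptor gene Ahr (5.76 and 5.49 FPKM) and its target Cyp1a1 (1.27 and 1.20 FPKM), named after their values were seen, were within counting error. Gpr35, also named after its value was seen, was below the minimum at 0.321 and 0.520 FPKM, from 22 and 36 fragments. Its ratio of 1.62 had an interval of 0.928 to 2.89, too wide to show a direction. After rescaling to TPM 0 of the 7 were higher and 3 lower, near the 48.4% lower among all measured genes in that scaling. In the other 2 scalings Nqo1 was still higher beyond counting error.

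Interferon gamma is the best known inducer of Ido1. Of 17 measured genes of its signalling and its targets, 3 were higher and 3 lower, with a median of 0.011, and the highest log2 difference among the measured ones was 0.30, beside 1.38 for Ido1. These counts moved with the scaling: 0 were higher and 10 lower after rescaling to TPM, 0 and 6 after scaling to total fragments, and 0 and 7 without the 50 most abundant genes. Among all measured genes, 48.4%, 30.3% and 34.0% were lower in those scalings. Relative to that of all measured genes, the list's median stayed between −0.011 and −0.0052 in the 4 scalings. Gbp2 (9.26 and 6.56 FPKM) and Igtp (7.65 and 5.46 FPKM), interferon-induced GTPases, were lower in all 4 scalings. Psmb9, an immunoproteasome subunit, was at 1.83 and 2.48 FPKM, and Ifngr1, the receptor chain with the highest level in the list, at 31.9 and 34.5 FPKM. Ciita, the regulator of MHC class II genes, was below the minimum at 0.200 and 0.411 FPKM, from 27 and 56 fragments. Its ratio of 2.05 had an interval of 1.28 to 3.38, which overlaps that of Ido1, and it was higher in all 4 scalings. The chemokine gene Cxcl9, also below the minimum, was lower, at 0.843 and 0.394 FPKM. The ligand gene Ifng had 0 fragments in both libraries. In the WT-labelled library its counting interval reached 0.201 FPKM, and a floor of 3 fragments would be 0.164 FPKM. Irf1 (23.8 and 24.9 FPKM), a transcription factor through which the signal reaches its targets, was within counting error. Ciita, Cxcl9, Ifng and Irf1 were named after their values were seen.

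**Figure D3:**
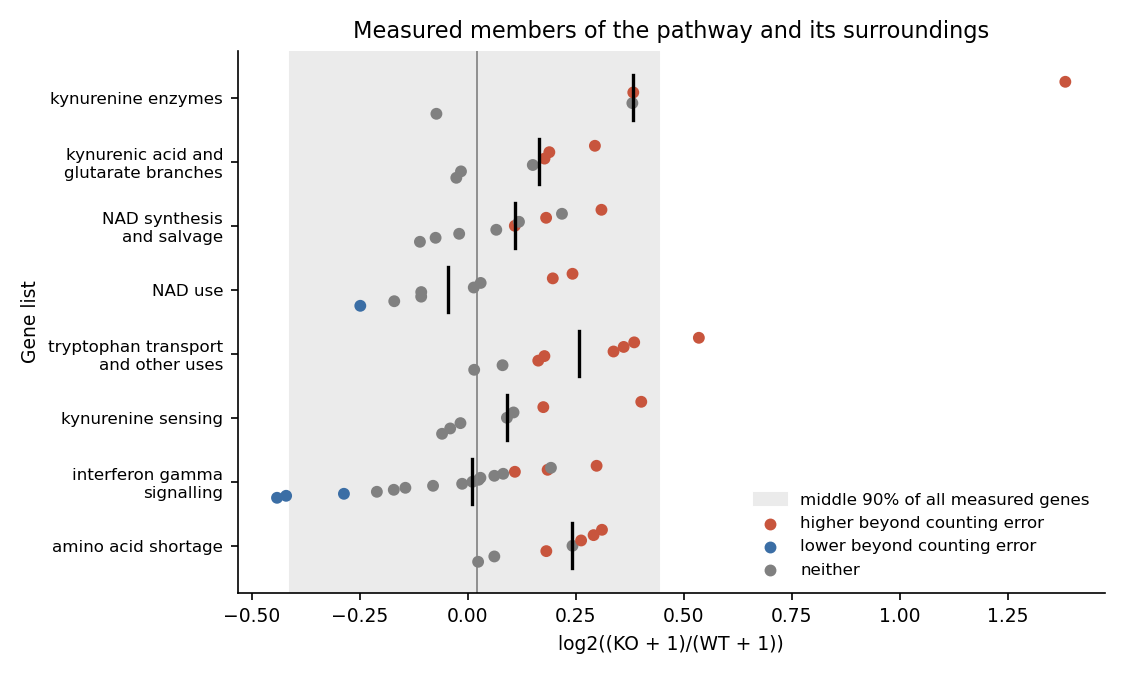
Each point is the log2((KO + 1)/(WT + 1)) of 1 measured gene, in rows by gene list, with the list's median as a black bar and the middle 90% of all measured protein-coding genes in grey (−0.41 to 0.44). Ido1, at 1.38, lies apart from the rest of the pathway, and Slc16a10 (0.53) is the only other point above the grey band.

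Markers of the cell types these libraries could hold were read beside Ido1. Of 14 epididymal epithelium markers, 12 were higher in the KO-labelled library and 1 lower, against 24.6% and 17.6% of all measured genes. Their summed level was 23644 FPKM in the WT-labelled library and 31485 FPKM in the KO-labelled library, led by Gpx5 (10039 and 11686 FPKM) and Lcn8 (3719 and 4750 FPKM), and none was at 0. After rescaling to TPM 9 were higher and 3 lower, Spink8 having turned from higher to lower. Among all measured genes 7.88% were higher and 48.4% lower in that scaling. The KO over WT ratios of these markers ran from 0.957 (Epcam) to 3.33 (Lcn9) with a median of 1.29, and the ratio of Ido1, 2.65, was above 13 of the 14. Per 100 FPKM of the epithelial gene Epcam, Ido1 stood at 19.0 in the WT-labelled library and 52.6 in the KO-labelled library. Per 100 FPKM of Gpx5, it stood at 0.429 and 0.975. The ratios of both these markers, 0.957 for Epcam and 1.16 for Gpx5, lay below the list's median. The level of Ido1 relative to a marker therefore depends on the marker: Rnase9 had a ratio of 2.51, near that of Ido1, and Lcn9 one above it. Epcam, Lcn9, Rnase9 and Spink8 were named after their values were seen. The part of epididymal epithelium in the Ido1 difference was not tested.

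Markers of macrophages and dendritic cells, the immune cells known for Ido1, went in both directions. Of 10 measured of 14, 2 were higher and 2 lower, with a median of −0.027 and a summed level of 302 and 366 FPKM over all 14. In TPM 2 were higher and 5 lower, and in the other 2 scalings 2 were higher and 4 lower. Among all measured genes 24.6% were higher and 17.6% lower as deposited, and 7.88% and 48.4% in TPM. The 2 higher markers were H2-Eb1 (42.3 and 62.5 FPKM) and Cd74 (113 and 169 FPKM), genes of antigen presentation that other cells can express too. The 2 lower markers were Mrc1 (10.6 and 7.87 FPKM) and C1qb (50.3 and 42.2 FPKM), both lower in all 4 scalings. Itgax, an integrin gene of dendritic cells and macrophages, was below the minimum at 0.559 and 1.02 FPKM. Its ratio was 1.82 (1.21 to 2.78), and it was higher in all 4 scalings. The dendritic cell genes Flt3 (0.160 and 0.147 FPKM) and Xcr1 (0.0793 and 0.0157 FPKM) were close to 0. Mrc1, C1qb, Itgax, Flt3 and Xcr1 were named after their values were seen. The part of macrophages and dendritic cells in the Ido1 difference was not tested.

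Other marker lists showed what the pathway enzymes were measured among. Adipocyte markers, of the labelled tissue, were low, with Fabp4 at 25.1 and 27.0 FPKM, Cfd at 5.82 and 4.17 FPKM and the defining hormone gene Adipoq at 2.30 and 0.506 FPKM. Adipose progenitor markers were present, led by Dcn (130 and 122 FPKM) and Ly6a (67.5 and 78.9 FPKM), with 2 of 7 higher and 5 lower, and 0 higher and 5 lower after rescaling to TPM. Among all measured genes 24.6% were higher and 17.6% lower as deposited, and 7.88% and 48.4% in TPM. Of the listed spermatid and sperm markers, 6 of 6 measured were higher, led by Prm2 (5.21 and 54.1 FPKM) and Prm1 (9.27 and 32.6 FPKM). Acrv1, below the minimum, was at 0.426 and 0.192 FPKM. The list does not stand for all sperm genes: ADAM genes near Ido1, such as Adam3 (6.79 and 4.11 FPKM) and Adam32 (5.35 and 2.36 FPKM), were lower. Adipoq and Acrv1 were named after their values were seen. Hepatocyte markers, of the cells known for Tdo2, summed to 9.93 and 6.64 FPKM, mostly Cyp2e1 (6.22 and 5.09 FPKM), with Alb at 1.69 and 0.448 FPKM. Kidney tubule markers, of another tissue rich in the later enzymes, summed to 11.1 and 13.4 FPKM, mostly Lrp2 (8.18 and 10.0 FPKM), with Kap at 1.90 and 1.09 FPKM. Of the T and NK cell markers, 1 of 6 was measured, Klrb1c at 28.2 and 50.7 FPKM, and Nkg7 was at 0.232 and 0.459 FPKM.

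The 5 measured protein-coding genes most like Ido1 were found by their distance to it on log2(FPKM + 1) over the 2 libraries. They were Rnase13 (35.8 and 109 FPKM, distance 0.26), Wfdc9 (50.2 and 101 FPKM, 0.28), Defb21 (41.8 and 141 FPKM, 0.31), Gm17677 (53.5 and 110 FPKM, 0.31) and Prnp (43.2 and 79.5 FPKM, 0.51). By name, Rnase13 belongs to the ribonuclease A family, Wfdc9 to the WAP family of protease inhibitors and Defb21 to the beta-defensins, while Prnp encodes the prion protein. All 5 were higher beyond counting error in the 4 scalings. That follows from choosing them by nearness to the levels of Ido1, itself higher, and says nothing further about Ido1. A likeness over 2 libraries rests on 2 values per gene only.

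**Figure D4:**
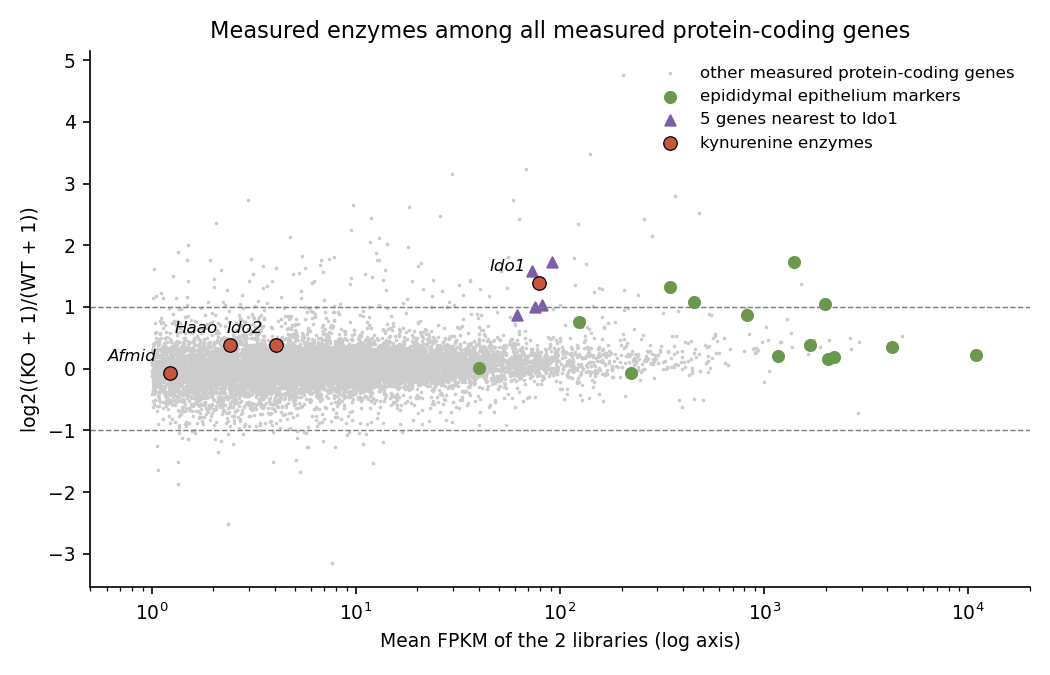
Mean FPKM of the 2 libraries (log axis) against log2((KO + 1)/(WT + 1)) for measured protein-coding genes (grey), with the 4 measured enzymes (red), 14 epididymal epithelium markers (green) and the 5 genes nearest to Ido1 (triangles). Dashed lines mark a 2-fold difference, which Ido1 passes at 1.38, while Ido2 and Haao lie at 0.38.

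**Figure D5:**
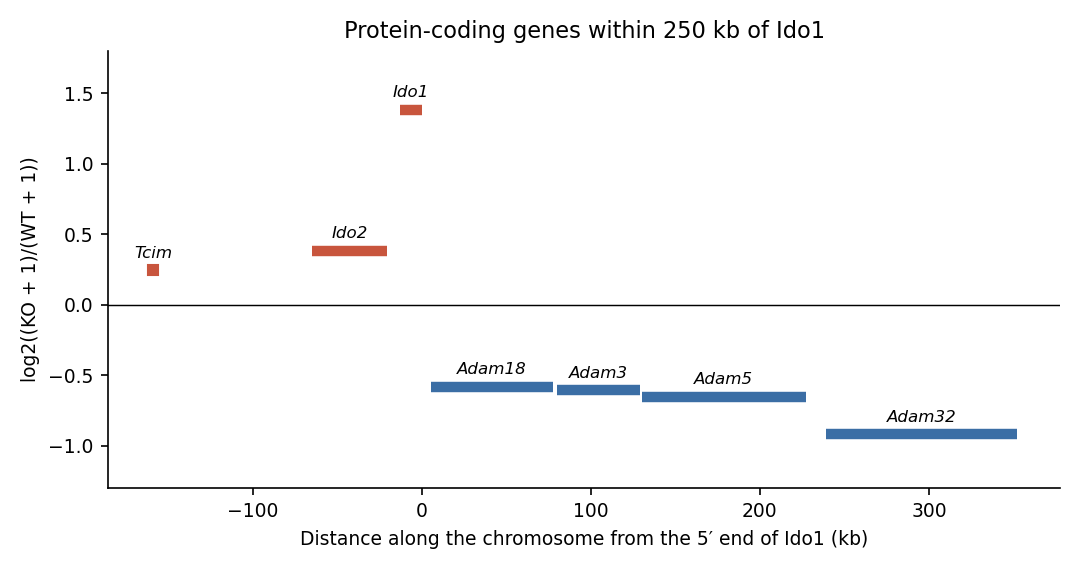
Protein-coding genes that overlap a window of 250 kb around Ido1, drawn by their position relative to its 5′ end (kb) and their log2((KO + 1)/(WT + 1)), red where higher and blue where lower beyond counting error. Ido1 (1.38) and Ido2 (0.38) stand above 0, whereas Adam18 and the other 3 ADAM genes on the far side stand below it.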

How the data were processed

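Per the labels' protocols, total RNA (1 µg) went into an Illumina TruSeq library preparation. The only tool in the submitters' processing notes is HISAT2 (2.0.5), an aligner, and they list mm10 and hg38 as builds. The values deposited are FPKM, 1 per gene and library, beside the gene length in bases. What counted the fragments is not stated.

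Multiplying FPKM by gene length gave whole fragments, within 0.01, for 100% of values above 0. On 1 kb, a fragment equals 0.0706 FPKM in the WT-labelled and 0.0699 FPKM in the KO-labelled library. The KO over WT ratio of the FPKM denominators was 1.01, against 1.08 for total fragments, so the values already carry a scaling by the authors, and none was added. Differences are log2((KO + 1)/(WT + 1)); the pseudocount, 1 FPKM, understates low genes. The 95% intervals (Clopper-Pearson for ratios, Poisson for levels, SciPy 1.17.1) and floors of 3 fragments cover counting error only, since reads without molecular identifiers are not independent molecules. The ratio intervals were tested on simulated fragments drawn with counting error only, so that test could not cover dependent reads or the spread between animals. Gene models and exon sequences came from GENCODE M21, which holds 54495 of the 54532 identifiers. For the 105 repeats of a symbol, the entry of higher mean stood for the gene.

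All 9 enzymes are named. Of each of the 7 wider lists, the up to 3 measured members with the largest difference and the one with the highest mean were picked, with the 2 highest of each of 8 marker lists, the genes within 250 kb of Ido1 and the 5 nearest to it in level. Other names were chosen after their values were seen, as said there. A gene picked by this rule is not reported here. The members and lists were chosen with earlier results of these data known. Alternatives were other scalings, pseudocounts, a 99% interval and no minimum level.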

Additional observations from a re-analysis of the deposited data

How the results depend on the processing

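No paired analysis was possible because each genotype has 1 library, and for the same reason no library could be left out. Rescaling to TPM moved the median of all measured genes by −0.19, scaling to total fragments by −0.082 and scaling without the 50 genes of highest mean FPKM by −0.10. The log2 difference of Ido1 was 1.20 in TPM and 1.27 without the 50 genes, beyond its counting interval, and it passed 2-fold in every alternative run. The number of enzymes higher beyond counting error fell from 2 to 1 in TPM, where Ido2 dropped out. The number lower went from 0 to 1, Qprt, in TPM, in scaling to total fragments and without the 50 genes. On the log2 scale a pseudocount of 0.1 FPKM moved 4 sparse enzymes further than any scaling: Tdo2 from −0.11 to −0.39, Kynu from −0.032 to −0.23, Qprt from −0.33 to −0.70 and Acmsd from −0.069 to −0.49, with no bearing on their counting intervals. In TPM the median was −0.014 for the kynurenic acid and glutarate list, −0.11 for the kynurenine sensing list and 0.075 for the tryptophan transport list. The last was also 0.15 without the 50 genes, 0.17 with a pseudocount of 5 FPKM and 0.12 with no minimum level. Of 103 alternative values, 84 moved by less than their counting error or tolerance, and 19 moved further. The values of Ido1 and Ido2, the enzymes higher as deposited, kept their sign in all of theirs. The medians of 4 wider lists turned from above to below 0 in TPM, and 3 genes, Nadk, Slc7a5 and Spink8, turned from higher to lower beyond counting error. Depth limited Kynu, Acmsd and Tdo2, with at most 16 fragments in a library.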

Other observations

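In the deposited scaling, genes on either side of Ido1 on chromosome 8 differed in opposite directions between the libraries. Of the 6 other protein-coding genes that overlap a window of 250 kb around it, Ido2 and Tcim (10.8 and 13.0 FPKM in the WT- and KO-labelled libraries) lie on the side of the 3′ end of Ido1. Tcim had a ratio of 1.20 and was not higher beyond counting error in the other 3 scalings. Ido2 was not higher beyond counting error after rescaling to TPM. On the other side lie the ADAM genes Adam18, Adam3, Adam5 and Adam32, members of a family of membrane metalloproteinase-like proteins that is known for its roles in sperm. Adam18, which lies 5.24 kb from Ido1, was at 2.36 and 1.24 FPKM, a ratio of 0.526 with a counting interval of 0.353 to 0.775. Adam3 was at 6.79 and 4.11 FPKM, Adam5 at 7.80 and 4.60 FPKM, and Adam32 at 5.35 and 2.36 FPKM, a ratio of 0.441 with an interval of 0.345 to 0.559. All 4 were lower in the KO-labelled library in each of the 4 scalings, next to an Ido1 that was higher in each.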
